A study of Mus musculus with 158 samples.

Results

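Pool 12 held 53 of the 1000 targeting hairpins of an shRNA screen that was run in 19 pools, and its 53 hairpins were aimed at 29 mouse genes. A hairpin was taken as a member where the authors' tables assign it to pool 12, and its values were read from the 9 of 158 libraries that are labelled for this pool alone. The screen used PDA530 Met, a mouse pancreatic adenocarcinoma line labelled as derived from a liver metastasis. Virus of the pool was put on the cells at a multiplicity of infection of 0.3, and infected cells were selected with puromycin at 3 µg/ml for 4 days. The day 0 group is 3 libraries from pellets of the selected cells before injection (A, B and C). The lung group is 3 libraries at day 28, each from the tumours of the lungs of 1 mouse after injection of the cells through the tail vein, with the tumours of a mouse combined into 1 DNA sample. The culture group is 3 libraries at day 28 from the same cells kept in vitro in triplicate. All groups carry the same 53 targeting hairpins and 8 control hairpins that were put in every pool, so no group is free of hairpins, and every value comes from 1 cell line. The strain of the mice, and whether the day 0 libraries came from separate cultures, are not stated in the labels, so the p-values measure the spread between these libraries, which may be technical for day 0.

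In a pooled shRNA screen each cell carries a virus that is integrated in its genome and makes a short hairpin RNA, which is processed into a small RNA that lowers 1 target mRNA. The integrated hairpin doubles as a barcode: sequencing it from genomic DNA counts the descendants of the cells that took it up. Cells injected into the tail vein lodge in the capillaries of the lung, and those that survive and grow there form colonies, so the earlier steps of leaving a primary tumour are not part of this assay. Hairpins of 1 gene can lower their target to different degrees and can hit other mRNAs, which is why a gene is usually given several.

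Of the 29 genes, 12 had 1 hairpin in pool 12, 11 had 2, 5 had 3 and 1 had 4. Another 49 hairpins against 23 of these genes were measured in pools 10, 11, 17, 18 or 19, and the other 6 genes had hairpins only in pool 12. Unlike those of pool 12, the culture libraries of these pools were labelled for 2 pools at once, apart from culture D of pool 19. Culture values of hairpins in other pools, and their differences from lungs or day 0, are thus not fully like those of pool 12. The hairpins are given here by gene symbol and library identifier, and their sequences are not shown.

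The 9 libraries held between 4154876 and 7459208 reads, of which 89.9 to 94.6% belonged to pool 12 targeting hairpins. Reads of other pools made up 0.0212 to 0.134%. Every one of the 53 hairpins was found in all 9 libraries, the lowest count being 320 reads of Lrrc57 TRCN0000179028 in lung library B, a share of 0.008% (95% Wilson interval 0.00717 to 0.00892%). Reads of PCR products without molecular identifiers are not independent molecules, so such an interval covers counting error only. All values below are shares, in percent, of the pool 12 targeting reads of a library. A share is relative: fewer cells with 1 hairpin cannot be told apart from more cells with the others.

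The pool was spread less evenly over its hairpins at day 28 than at day 0, when mean shares already ran from 0.0598% (Arid2 TRCN0000201553) to 7.17% (Alkbh8 TRCN0000127074). The effective number of hairpins, the number of equally common hairpins that would give the same entropy, was 42.0 ± 1.18 at day 0 (SD, n = 3), 30.2 ± 1.91 in culture and 31.9 ± 2.54 in the lungs. It lay between 41.0 and 43.3 at day 0, between 28.0 and 31.5 in culture and between 29.7 and 34.7 in the lungs, so neither day 28 group overlapped day 0, while culture and lungs overlapped each other. Each day 28 group differed from day 0 with an exact permutation p of 0.1 (two-sided), the smallest that 3 libraries against 3 can give, and lungs against culture gave an exact permutation p of 0.5. In the other 16 pools with lung libraries the lung effective number lay between 6.40 and 31.6 with a median of 22.2, so the pool 12 mean was above the highest of them by less than its own SD. Its day 0 value was the highest of 19. The log2 change from day 0 to the lungs was -0.40, beside a median of -0.51 in the other pools, and ranked 6 of 17.

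Libraries of 1 group resembled each other most at day 0 and least in the lungs. Over the 53 hairpins, which are not independent replicates, Pearson's r of the log2 shares was 0.992 to 0.995 between day 0 libraries, 0.969 to 0.975 between cultures and 0.890 to 0.920 between lungs. It was 0.646 to 0.803 between a day 0 and a lung library. The highest of the 3 shares of a hairpin was a median of 1.13 times the lowest at day 0, 1.38 times in culture and 1.96 times in the lungs. That ratio passed 2 for 2 hairpins at day 0, 11 in culture and 24 in the lungs, so a lung difference has to be larger than a culture difference to stand out from the spread between mice.

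Between day 0 and the lungs, 21 of the 53 hairpins changed (39.6%), 7 to higher and 14 to lower shares. A hairpin is called here, and in every count below, at an adjusted p of at most 0.05 from limma on log2(CPM + 1), with TMM scaling, two-sided and with Benjamini-Hochberg adjustment over the hairpins of all pools. CPM stands for counts scaled to a common library total, here of pool 12 targeting reads, and the pseudocount of 1 slightly understates changes of rare hairpins. Over all 891 hairpins tested in 17 pools the same rule called 33.8%, with 14.7% higher and 19.1% lower, so the count in pool 12 is near the background. The median log2 change was 0.04 in pool 12 and -0.13 over all pools. The largest falls were those of single hairpins against Spert, Lrrc57 and Pxdn, and the largest rise was that of a hairpin against Fbxo22. The shares of the 3 lungs all lay beyond those of day 0 for 33 hairpins, against 59.5% of all 785 hairpins compared. Of the 53 hairpins, 10 lay above day 0 (18.9%, background 13.5%) and 23 below (43.4%, background 46%). Leaving out day 0 library B, or day 0 library C, lowered the number of calls from 21 to 12.

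Between day 0 and culture, 34 hairpins changed (64.2%), 17 to higher and 17 to lower shares, against 60.6% of 945 hairpins over 18 pools. The largest rises were hairpins against Dach2, Pcdhb6 and Pbrm1, and the largest falls hairpins against Lrrc57, Pak1ip1 and Aff4. Between culture and lungs, 16 hairpins differed (30.2%), 6 higher and 10 lower in the lungs, against 24.9% of 889 over 17 pools. Shares of culture and day 0 did not overlap for 39 of the 53 hairpins (73.6%, background 74%), with 10 of the 53 above (18.9%, background 21.2%) and 29 below (54.7%, background 52.9%). Shares of lungs and culture did not overlap for 28 (52.8%, background 45.5%), with the lungs above in 17 (32.1%, background 20.1%) and below in 11 (20.8%, background 25.5%). The lung and the culture comparisons with day 0 use the same 3 day 0 libraries, so their values are set side by side without a test of likeness.

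The split between higher and lower calls depends on the scaling. With plain library totals in place of TMM the median log2 change of the 53 hairpins moved by -0.20 for lungs against day 0, by -0.51 for culture against day 0 and by 0.17 for lungs against culture. Higher calls were then 5 of 23 in place of 7 of 21 for lungs against day 0, 9 of 36 in place of 17 of 34 for culture against day 0, and 10 of 20 in place of 6 of 16 for lungs against culture. With the authors' own scaling, higher calls were 10 of 35 for culture against day 0 and 10 of 19 for lungs against culture. The DESeq2 Wald test gave 13 higher of 27 calls for lungs against day 0 and 10 of 21 for lungs against culture, and edgeR gave 7 of 16 for lungs against day 0. Log2 changes below are on the TMM scale, so in culture a hairpin can have a positive log2 change while all its raw shares lie below day 0, as for Dusp6 TRCN0000055038 (0.14, with 0.863 to 1.19% in culture against 1.23 to 1.36% at day 0). In the gene groups below, background is the share of all hairpins tested in the same comparison that were called in that direction, and the median log2 change over all hairpins was -0.13 in the lungs and -0.10 in culture.

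Among the 6 genes of RNA handling and translation, 2 of 12 hairpins rose in the lungs against day 0 (background 14.7%), 3 fell (19.1%) and 7 were not called, with a median log2 change of 0.06. In culture 3 rose (background 28.8%) and 5 fell (31.9%), with a median of -0.19. Msi2 encodes Musashi-2, an RNA-binding protein that regulates translation of its target mRNAs, and both of its hairpins in pool 12 were called lower in the lungs against day 0. Msi2 TRCN0000071976 made up 0.360, 0.243 and 0.415% of reads at day 0, 0.392, 0.800 and 0.447% in culture, and 0.104, 0.0422 and 0.116% in the lungs. Msi2 TRCN0000071974 made up 1.87, 1.74 and 2.08% at day 0, 1.55, 1.88 and 1.60% in culture, and 0.854, 0.707 and 0.643% in the lungs. For both hairpins every lung lay below every day 0 and every culture library, while culture overlapped day 0. TRCN0000071976 fell by 1.85 on the log2 scale in the lungs against day 0 (SE 0.52, limma adjusted p = 0.0229) and TRCN0000071974 fell by 1.17 (SE 0.30, limma adjusted p = 0.0143). Without day 0 library A these calls were lost, at limma adjusted p = 0.0672 and 0.0647.

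Against culture, the log2 differences of the Msi2 hairpins in the lungs were -2.86 for TRCN0000071976 and -1.36 for TRCN0000071974 (limma adjusted p = 0.00237 and 0.00378), and both calls were kept in every alternative run. In culture against day 0 both were called higher with TMM, with log2 changes of 1.16 and 0.33. For Msi2 TRCN0000071974 this direction turned with plain library totals, to -0.18, and with the authors' scaling, to -0.073, and neither was called. For TRCN0000071976 the rise in culture was not called with library totals (0.65, limma adjusted p = 0.109), with the authors' scaling (0.75, limma adjusted p = 0.0643) or with all 3 groups in 1 fit (limma adjusted p = 0.0581). TRCN0000071974 lost its culture call without culture library A, day 0 library A or day 0 library B (limma adjusted p = 0.0867 to 0.150), and with all 3 groups in 1 fit (limma adjusted p = 0.249). Another Msi2 hairpin, TRCN0000071975 of pool 11, went from 1.73 to 2.07% at day 0 to 5.39 to 7.73% in culture and 2.44 to 2.88% in the lungs. The culture libraries of pool 11 were labelled for pools 10 and 11 together. This hairpin rose in both day 28 groups against its own day 0, by 2.39 in culture and 0.68 in the lungs. It was lower in the lungs than in culture, with a log2 difference of -1.63 (limma adjusted p = 7.1e-05). All 3 Msi2 hairpins were thus lower in lungs than in culture, while against day 0 the pool 11 hairpin was higher in the lungs and the pool 12 hairpins lower.

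Pak1ip1 acts in the assembly of the large ribosomal subunit, and 1 of its 3 hairpins showed the largest difference between culture and lungs among the 53. Pak1ip1 TRCN0000009759 stood at 0.638, 0.557 and 0.734% at day 0, at 0.0414, 0.0822 and 0.118% in culture and at 0.881, 1.40 and 1.77% in the lungs. The 3 groups did not overlap, with culture lowest and lungs highest. It fell by 2.60 in culture (SE 0.39, limma adjusted p = 1.3e-05), and the lungs were higher than culture by 3.97 (SE 0.49, limma adjusted p = 0.000179), the largest rise of that comparison in pool 12. Its rise of 1.22 in the lungs against day 0 (limma adjusted p = 0.0213) was lost without any 1 of day 0 libraries A, B and C (limma adjusted p = 0.0804 to 0.0961) and with the replicate letter as a block (limma adjusted p = 0.0584).

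A second hairpin, Pak1ip1 TRCN0000009760, was at 1.05, 1.10 and 1.30% at day 0, 0.365, 0.254 and 0.276% in culture and 0.697, 0.605 and 1.13% in the lungs. It fell by 1.45 in culture (limma adjusted p = 8.51e-05), and its log2 difference of 1.24 between lungs and culture (limma adjusted p = 0.0425) was lost without culture library B or C or lung library A or C (limma adjusted p = 0.0579 to 0.153). In the lungs against day 0 its log2 change was -0.35 and not called, with overlapping shares. The other hairpin, TRCN0000009758, was not called in any comparison, with log2 changes of 0.49 in the lungs and 0.08 in culture, although its shares of 1.30 to 1.49% in culture lay below the 1.75 to 1.97% of day 0. No other pool held a Pak1ip1 hairpin.

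Alkbh8, a tRNA methyltransferase that modifies the wobble uridine, was the target of the most common hairpin of the pool. Alkbh8 TRCN0000127074 held the largest share of all 9 libraries, 7.48, 7.42 and 6.62% at day 0, 14.6, 10.7 and 10.6% in culture and 11.3, 9.55 and 8.18% in the lungs. Both day 28 groups lay above day 0, and they overlapped each other. It rose by 1.23 in culture (SE 0.23, limma adjusted p = 0.000111), or by 0.72 with library totals (limma adjusted p = 0.000296). The rise of 0.62 in the lungs (limma adjusted p = 0.0442) was lost without day 0 library A, B or C or lung library A or B (limma adjusted p = 0.0616 to 0.267), with library totals (0.0572) and with all 3 groups in 1 fit (0.0597, limma adjusted p both). Without day 0 library C the lung log2 change itself was 0.37. Alkbh8 TRCN0000127077 had 3.66 to 3.90% at day 0 and 4.09 to 5.86% in the lungs, and TRCN0000127076 had 2.64 to 2.73% and 2.13 to 3.01%, neither of them called in the lungs or in culture. In culture TRCN0000127076 held 1.69 to 1.79%, all below day 0, for a log2 change of -0.11, and TRCN0000127077 held 2.97 to 4.05%, overlapping day 0. No other pool held an Alkbh8 hairpin.

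Rbm8a encodes a core protein of the exon junction complex, and Sf3b1 a core protein of the splicing machinery that recognises the branch point. Rbm8a TRCN0000123572 went from 0.218, 0.188 and 0.261% at day 0 to 0.0255, 0.110 and 0.0786% in culture and 0.0525, 0.0155 and 0.0307% in the lungs. It fell by 2.71 in the lungs (SE 0.64, limma adjusted p = 0.0104), a call kept in every alternative run. Its log2 fall (-1.36) in culture was lost without culture library C or day 0 library A or C (limma adjusted p = 0.0621 to 0.0739) and with all 3 groups in 1 fit (limma adjusted p = 0.120), and without culture library A the log2 change was -0.85, still called (limma adjusted p = 0.0418).

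Sf3b1 TRCN0000109242 had 1.47, 1.47 and 1.68% at day 0, 0.573, 0.440 and 0.651% in culture and 1.57, 1.55 and 1.31% in the lungs. Culture lay below both other groups, which overlapped. It fell by 0.98 in culture (limma adjusted p = 0.000191), or fell by 1.49 with library totals, and was higher in lungs than in culture by 1.26 (SE 0.31, limma adjusted p = 0.0128), while against day 0 the lung log2 change was 0.14 and not called. In pool 11 Sf3b1 TRCN0000109244 fell by 2.94 in the lungs and fell by 0.90 in culture (limma adjusted p = 0.00305 and 1.27e-06), and was lower in lungs than in culture. The other Sf3b1 hairpin of pool 11, TRCN0000109241, was not called in any comparison, with log2 changes of -1.47 in the lungs and 0.14 in culture. The Rbm8a hairpins of other pools also differed among themselves: TRCN0000434151 of pool 18 rose by 1.26 in the lungs (limma adjusted p = 0.0173), and those of pool 10 and pool 18 that had negative log2 changes were not called there. Ankrd17, an ankyrin repeat protein with an RNA-binding KH domain, had a hairpin, TRCN0000072057, that fell by 1.20 in culture (2.20 to 2.38% at day 0, 0.656 to 0.769% in culture, limma adjusted p = 8.18e-07) and was not called in the lungs, where it held 1.15 to 1.82%. Ankrd17 TRCN0000072056 was not called in any comparison, and in pool 19 Ankrd17 TRCN0000304666 fell by 1.89 in the lungs and fell by 0.74 in culture (limma adjusted p = 0.0463 and 0.0478).

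Among the 3 genes of matrix and cell adhesion, 1 of 5 hairpins rose in the lungs (background 14.7%), 1 fell (19.1%) and 3 were not called, with a median log2 change of 0.70. In culture 4 rose (background 28.8%) and 1 fell (31.9%), with a median of 0.87. Pxdn encodes peroxidasin, a secreted peroxidase that crosslinks collagen IV in basement membranes. Pxdn TRCN0000217715 was at 1.77, 1.78 and 2.00% at day 0, 0.383, 0.435 and 0.496% in culture and 0.156, 0.144 and 0.142% in the lungs. The 3 groups did not overlap, and the 3 lungs lay closer together than the 3 libraries of any other group for this hairpin. It fell by 3.45 in the lungs (SE 0.28) and fell by 1.58 in culture (SE 0.18), at limma adjusted p = 0.000138 and 2.26e-07, and was lower in lungs than in culture, with a log2 difference of -1.73 (limma adjusted p = 0.011) that was lost without culture library C (limma adjusted p = 0.0753).

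The second Pxdn hairpin went the other way. Pxdn TRCN0000216702 had 2.46, 2.37 and 2.42% at day 0, 3.33, 2.54 and 3.56% in culture and 4.56, 3.02 and 2.88% in the lungs, with both day 28 groups above day 0. It rose by 0.87 in culture (limma adjusted p = 0.000132), or by 0.37 with library totals (limma adjusted p = 0.0336) and 0.47 with the authors' scaling, and its lung log2 change of 0.70 was not called (limma adjusted p = 0.061). In pool 19, Pxdn TRCN0000251359 rose by 1.98 in the lungs (limma adjusted p = 0.00231) and was not called in culture, and TRCN0000251358 fell by 2.75 in culture and was not called in the lungs. The 4 Pxdn hairpins of the screen therefore held 1 called fall and 1 called rise in the lungs.

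Protocadherins are cell adhesion proteins of the cadherin superfamily. Pcdhb6 TRCN0000094302 had 1.28, 1.01 and 1.35% at day 0, 2.82, 4.05 and 4.01% in culture and 2.48, 1.66 and 1.97% in the lungs, so that the 3 groups did not overlap. It rose by 2.08 in culture (SE 0.13, limma adjusted p = 2.31e-11). The rise of 0.94 in the lungs (limma adjusted p = 0.0228) was lost without day 0 library B or C (limma adjusted p = 0.0738 and 0.0698). The log2 difference of -0.999 between lungs and culture (limma adjusted p = 0.0136) was lost without culture library B or C (limma adjusted p = 0.0547 and 0.0986) and with the authors' scaling (limma adjusted p = 0.0687).

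Pcdhb6 TRCN0000094303 had 3.04, 3.09 and 3.15% at day 0 and 3.16, 8.60 and 3.08% in the lungs, where lung library B stood apart and the other 2 lungs were level with day 0. It was not called in the lungs, and its rise of 0.67 in culture was not called with library totals (0.16, limma adjusted p = 0.226), with the authors' scaling (0.26, limma adjusted p = 0.0647) or with all 3 groups in 1 fit (0.139). Pcdh18 TRCN0000094260 rose by 0.97 in culture (limma adjusted p = 3.01e-05), or by 0.46 with library totals and 0.56 with the authors' scaling, from 3.32 to 3.72% to 4.52 to 5.45%, and was not called in the lungs at 3.65 to 4.00%. Other Pcdh18 hairpins changed in the lungs of their own pools, TRCN0000340587 of pool 19 by 3.20 and TRCN0000094259 of pool 11 by 0.82 upwards, while TRCN0000340586 of pool 19 fell by 1.76 (limma adjusted p = 0.00192, 0.0199 and 0.0248).

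The 7 genes of signalling, scaffolds and ubiquitin ligases had 12 hairpins, of which 2 rose in the lungs (background 14.7%), 2 fell (19.1%) and 8 were not called, with a median log2 change of 0.40. In culture 4 rose (background 28.8%), 4 fell (31.9%) and 4 were not called, with a median of -0.17. Fbxo22 is the substrate-binding subunit of a ubiquitin ligase of the SCF type. Fbxo22 TRCN0000194517 made up 1.59, 1.61 and 1.80% at day 0, 0.917, 1.59 and 1.36% in culture and 4.10, 7.24 and 6.29% in the lungs. All 3 lungs lay above every other library, and culture overlapped day 0. It rose by 1.98 in the lungs against day 0 (SE 0.25, limma adjusted p = 0.000442), the largest rise of the pool in that comparison, and was higher than in culture by 2.02 (SE 0.31, limma adjusted p = 0.000985). Both calls were kept in every alternative run, and the culture log2 change of 0.10 was not called.

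Fbxo22 TRCN0000193737 moved the opposite way, from 1.91, 1.83 and 1.86% at day 0 to 0.909, 0.826 and 0.769% in culture and 0.505, 0.152 and 1.09% in the lungs. The lungs overlapped culture, and both lay below day 0. Its log2 fall (-1.89) in the lungs (SE 0.61, limma adjusted p = 0.0421) was lost without day 0 library B or C or lung library A (limma adjusted p = 0.0767 to 0.0846), with edgeR (adjusted p = 0.0882) and with the authors' scaling (limma adjusted p = 0.0706). Without lung library B the log2 change was -1.12 (limma adjusted p = 0.0347). In culture it fell by 0.66 (limma adjusted p = 0.00103), fell by 1.16 with library totals and fell by 1.06 with the authors' scaling, and the call was lost with all 3 groups in 1 fit (limma adjusted p = 0.356). Fbxo22 hairpins TRCN0000319962 and TRCN0000320040 of pool 19 had lung log2 changes of -0.03 and 0.37, not called.

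Rassf8 encodes a protein with a Ras association domain, and 2 of its 3 hairpins in pool 12 rose in culture. Rassf8 TRCN0000121037 had 2.31, 2.47 and 2.45% at day 0, 3.74, 5.76 and 3.21% in culture and 4.26, 8.39 and 4.41% in the lungs. Both day 28 groups lay above day 0 and overlapped each other. It rose by 1.37 in the lungs (SE 0.29, limma adjusted p = 0.00608), a call lost without day 0 library C (limma adjusted p = 0.0842), and by 1.28 in culture (limma adjusted p = 4.91e-06), or by 0.77 with library totals (limma adjusted p = 0.00182).

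Rassf8 TRCN0000121038 was at 3.41, 3.39 and 3.19% at day 0 and at 8.33, 3.37 and 5.32% in the lungs, which overlapped day 0 in library B. It was not called in the lungs (0.87, limma adjusted p = 0.0726) and rose by 1.17 in culture, to 4.97 to 5.81% (limma adjusted p = 5.28e-06), or by 0.66 with library totals and 0.76 with the authors' scaling. Rassf8 TRCN0000121040 fell in both, from 2.57 to 2.61% at day 0 to 0.822 to 1.21% in culture and 1.10 to 1.65% in the lungs. Its log2 change in culture was -0.82 (limma adjusted p = 0.000124), or -1.33 with library totals. Its log2 change of -0.71 in the lungs (limma adjusted p = 0.0462) was lost without day 0 library A or B or lung library C (limma adjusted p = 0.0787 to 0.138), with DESeq2 size factors (limma adjusted p = 0.0508), in the DESeq2 Wald test (adjusted p = 0.0501), with edgeR (adjusted p = 0.0625) and with the replicate letter as a block (limma adjusted p = 0.0689). No other pool held a Rassf8 hairpin.

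Arhgef12, an exchange factor that activates RhoA, had hairpins below day 0 in every lung. Arhgef12 TRCN0000109963 was at 1.98, 2.06 and 2.24% at day 0, 2.23, 2.52 and 3.01% in culture and 0.861, 0.260 and 1.20% in the lungs, and Arhgef12 TRCN0000109964 had 1.57, 1.61 and 1.44% at day 0 and 0.428, 0.229 and 1.43% in the lungs. Neither was called in the lungs against day 0, with log2 changes of -1.496 and -1.37 (limma adjusted p = 0.0529 and 0.097). With 1 library left out, the change of TRCN0000109963 ran from -1.88 to -0.83 and was called in 3 of 6 fits. That of TRCN0000109964 ran from -2.03 to -0.77 and was called in 1 of 6. TRCN0000109963 was lower in lungs than in culture, with a log2 difference of -2.16 (SE 0.45, limma adjusted p = 0.00477). In culture TRCN0000109963 had a log2 change of 0.80 that was called with TMM but not with library totals (0.30, limma adjusted p = 0.074) or all 3 groups in 1 fit (0.156), was 0.40 with the authors' scaling, and had shares that overlapped day 0. TRCN0000109964 fell in culture by 0.83 (limma adjusted p = 0.000184), or by 1.34 with library totals, and lost that call with all 3 groups in 1 fit (limma adjusted p = 0.206). In pool 11 Arhgef12 TRCN0000109960 fell by 2.94 in the lungs and fell by 1.27 in culture, and was lower in lungs than in culture, with a log2 difference of -1.60 (limma adjusted p = 0.000314, 1.86e-09 and 0.0117).

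The remaining members of this group were not called in the lungs. Ahnak, a very large scaffold protein, had a hairpin, TRCN0000104945, that rose by 1.51 in culture (limma adjusted p = 1.97e-08), or by 1.004 with library totals, from 0.762 to 0.927% to 1.44 to 1.80%, with 0.675 to 1.89% in the lungs. Ahnak TRCN0000104947 was not called, with 0.122, 0.0659 and 0.144% at day 0, 0.0131, 0.0930 and 0.0661% in culture and 0.154, 0.224 and 0.240% in the lungs, which lay above both other groups (lungs against culture 2.06, limma adjusted p = 0.0566). Its culture log2 change was -0.77. Ahnak TRCN0000104946 of pool 11 was called higher in culture (1.16, limma adjusted p = 0.0185), but with shares that overlapped day 0. It held 0.309, 0.202 and 0.228% at day 0 and 0.270, 0.250 and 0.687% in culture. Dusp6, a phosphatase that inactivates ERK, Dock2, an exchange factor for Rac known from blood cells, and Mkrn2, a RING finger ubiquitin ligase, had 1 hairpin each, with lung log2 changes of 0.42, 0.10 and 0.38. Dock2 TRCN0000091245 was called lower in culture (-1.09, limma adjusted p = 0.0458), with 0.218 to 0.339% at day 0 and 0.0437 to 0.147% in culture. That call was lost without culture library A or C or day 0 library A, B or C (limma adjusted p = 0.0622 to 0.160), with edgeR (adjusted p = 0.0757), with the replicate letter as a block (limma adjusted p = 0.0873) and with all 3 groups in 1 fit (limma adjusted p = 0.091). In other pools Dock2 TRCN0000091246 of pool 11 fell by 2.69 in culture (limma adjusted p = 9.98e-07), and no Dock2 hairpin there was called in the lungs. Mkrn2 TRCN0000040523 fell by 3.35 in the lungs of pool 11 and TRCN0000040524 rose by 0.88 there, while Dusp6 TRCN0000350080 rose by 1.27 in the lungs of pool 18 (limma adjusted p = 0.00155, 0.00199 and 0.00624).

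The 5 genes of transcription, chromatin and DNA replication had 7 hairpins, of which none was called higher in the lungs (background 14.7%), 2 fell (19.1%) and 5 were not called, with a median log2 change of -0.47. In culture 3 rose (background 28.8%) and 2 fell (31.9%), with a median of 0.25. Rpa3 is the smallest subunit of replication protein A, which coats single-stranded DNA during replication and repair. Rpa3 TRCN0000126818 had 3.51, 3.74 and 3.22% at day 0, 2.88, 2.46 and 3.52% in culture and 0.683, 0.372 and 0.565% in the lungs. The lungs lay below both other groups, which overlapped. It fell by 2.53 in the lungs against day 0 (SE 0.30, limma adjusted p = 0.000383) and was lower than in culture, with a log2 difference of -2.65 (SE 0.30, limma adjusted p = 0.000116). Both calls were kept in every alternative run, and the culture log2 change of 0.25 was not called.

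Rpa3 TRCN0000126816 had 0.414, 0.415 and 0.505% at day 0, 0.0787, 0.180 and 0.0941% in culture and 0.301, 0.396 and 0.152% in the lungs. Lungs and culture both lay below day 0 and overlapped each other. It fell by 1.499 in culture (limma adjusted p = 0.00202), and the lung log2 change of -0.55 was not called. Aff4 is a scaffold of the super elongation complex, which releases paused RNA polymerase II. Aff4 TRCN0000103586 went from 2.39, 2.37 and 2.24% at day 0 to 0.617, 0.425 and 0.338% in culture and 0.329, 0.142 and 1.25% in the lungs, where library C was highest but still below day 0. It fell by 1.88 in culture (limma adjusted p = 1.41e-06). The log2 fall (-2.39) in the lungs (limma adjusted p = 0.0245) was lost without day 0 library C or lung library A (limma adjusted p = 0.0544 and 0.074) and with edgeR (adjusted p = 0.0708).

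Aff4 TRCN0000103585 was not called in the lungs, and its culture log2 change of 0.68 was not called with library totals (0.17, limma adjusted p = 0.262), the authors' scaling (0.28, limma adjusted p = 0.0799) or all 3 groups in 1 fit (0.0502), with overlapping shares. Of the Aff4 hairpins of pool 11, TRCN0000103587 fell by 3.95 in the lungs and fell by 3.01 in culture (limma adjusted p = 0.0248 and 5.36e-51), and TRCN0000103588 fell by 0.47 in culture (limma adjusted p = 0.00157) and was not called in the lungs. An adjusted p that small leans on the spread shared among all hairpins of pool 11, not on the libraries of this hairpin alone.

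Dach2, a transcriptional cofactor of the dachshund family, and Pbrm1, a bromodomain subunit of the PBAF chromatin remodelling complex, had hairpins with higher shares in culture than in the lungs. Dach2 TRCN0000108579 had 3.26, 3.40 and 3.36% at day 0, 10.6, 10.5 and 9.32% in culture and 6.38, 3.38 and 5.12% in the lungs. Pbrm1 TRCN0000081822 had 2.30, 2.48 and 2.17% at day 0, 5.53, 4.67 and 5.37% in culture and 1.66, 1.42 and 2.87% in the lungs. For both, culture lay above every other library and lungs overlapped day 0. For Dach2 the overlap was in lung library B alone, with A and C above day 0, and the lung log2 change of 0.72 was not called (limma adjusted p = 0.0814). Dach2 TRCN0000108579 rose by 2.10 in culture (SE 0.18, limma adjusted p = 3e-09) and Pbrm1 TRCN0000081822 by 1.67 (SE 0.16, limma adjusted p = 3.57e-08). The lungs were lower than culture, with log2 differences of -1.24 for Dach2 and -1.62 for Pbrm1 (limma adjusted p = 0.00635 and 0.00214), and all 4 calls were kept in every alternative run.

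Other hairpins of these genes did not share 1 direction. Dach2 TRCN0000108578 of pool 11 rose by 2.48 in the lungs and was higher there than in culture by 1.74, and TRCN0000422179 of pool 19 fell by 2.05 in the lungs (limma adjusted p = 0.00116, 0.00787 and 0.00608). Pbrm1 TRCN0000081820 of pool 11 was lower in lungs than in culture, as the pool 12 hairpin was, with a log2 difference of -1.63 (limma adjusted p = 0.0154), and TRCN0000304681 of pool 17 fell by 4.23 in the lungs and fell by 3.05 in culture (limma adjusted p = 0.00106 and 5.43e-10). Arid2, another subunit of PBAF, had 1 rare hairpin in pool 12, TRCN0000201553, at 0.0501 to 0.0699% at day 0 and 0.0327 to 0.0432% in the lungs, and it was not called in any comparison. In pool 18 Arid2 TRCN0000225732 fell by 2.33 in the lungs (limma adjusted p = 0.00312) and was lower there than in culture, with a log2 difference of -2.19 (limma adjusted p = 0.0213).

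The 6 genes of transport and membrane traffic had 10 hairpins, of which 1 rose in the lungs (background 14.7%), 4 fell (19.1%) and 5 were not called, with a median log2 change of -0.74. In culture 3 were called higher (background 28.8%) and 2 lower (31.9%), with a median of -0.14. Tmem33 is a membrane protein of the endoplasmic reticulum. Tmem33 TRCN0000216503 had 1.93, 1.97 and 1.88% at day 0, 1.09, 1.17 and 1.28% in culture and 3.69, 3.10 and 3.73% in the lungs, so that the lungs lay above and culture below day 0. It rose by 1.06 in the lungs (SE 0.21, limma adjusted p = 0.00481) and was higher there than in culture by 1.40 (SE 0.25, limma adjusted p = 0.00201), both calls being kept in every alternative run. The culture log2 change of -0.20 was not called.

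Tmem33 TRCN0000216557 had 1.31, 1.29 and 1.41% at day 0 and 0.697, 0.299 and 0.568% in the lungs. It fell by 1.24 (limma adjusted p = 0.0256), a call lost without day 0 library B (limma adjusted p = 0.0511). In pool 18 Tmem33 TRCN0000320319 fell by 1.83 in the lungs (limma adjusted p = 0.00566) and TRCN0000320321 was not called (0.23), so that 2 of the 4 Tmem33 hairpins fell in the lungs and 1 rose.

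Rab14 is a small GTPase of traffic between endosomes and the Golgi apparatus. Rab14 TRCN0000089377 went from 2.56, 2.64 and 2.40% at day 0 to 0.714, 0.549 and 0.655% in culture and 1.20, 0.439 and 0.743% in the lungs. It fell by 1.59 in the lungs (SE 0.37) and fell by 1.49 in culture (SE 0.16), at limma adjusted p = 0.00919 and 1.6e-07, and lungs and culture overlapped. Both calls were kept in every alternative run. Of the Rab14 hairpins elsewhere, TRCN0000089374 of pool 11 fell by 1.74 in culture (limma adjusted p = 1.05e-14), and neither it nor TRCN0000332372 of pool 19 was called in the lungs.

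Uvrag binds the Beclin 1 complex and takes part in autophagy and endosome maturation. Uvrag TRCN0000121011 had 3.90, 3.87 and 3.58% at day 0, 3.88, 3.79 and 2.92% in culture and 2.20, 0.538 and 1.35% in the lungs, with the lungs below both other groups. It fell by 1.49 in the lungs (limma adjusted p = 0.0347), and the call was lost without day 0 library B or C or lung library C (limma adjusted p = 0.0502 to 0.0835), with edgeR (adjusted p = 0.072) and with the authors' scaling (limma adjusted p = 0.0501). Without lung library B the log2 change was -0.92 (limma adjusted p = 0.0359). The lungs were lower than culture, with a log2 difference of -1.75 (limma adjusted p = 0.0116) that was lost without culture library A (limma adjusted p = 0.0739).

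In culture Uvrag TRCN0000121011 had a log2 change of 0.40 that was called with TMM, but its shares overlapped day 0 and the sign turned with library totals (-0.11) and with the authors' scaling (-0.0068). That culture call was also lost without any 1 of day 0 libraries A, B and C or culture libraries A and B (limma adjusted p = 0.0511 to 0.225), with the replicate letter as a block (0.0706) and with all 3 groups in 1 fit (0.477). Uvrag TRCN0000121009 (0.57) and Golt1b TRCN0000126157 (0.43) were called higher in culture with overlapping shares too. Neither was called with library totals, where the log2 change was 0.07 for Uvrag and, with the sign turned, -0.082 for Golt1b, nor with the authors' scaling or all 3 groups in 1 fit. Uvrag TRCN0000121009 lost the call without culture library C (limma adjusted p = 0.0701) and Golt1b TRCN0000126157 without day 0 library A (limma adjusted p = 0.0578). No hairpin of Uvrag was measured in another pool. Uvrag TRCN0000121008 was not called, with 1.56 to 1.69% at day 0 and 1.70 to 3.14% in the lungs.

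Abca12, a lipid transporter known from keratinocytes, had a hairpin, TRCN0000113456, with 2.23, 2.18 and 1.85% at day 0 and 0.734, 1.37 and 0.696% in the lungs. Its log2 fall (-1.03) (limma adjusted p = 0.0293) was lost without any 1 of day 0 libraries A, B and C or lung libraries A and C (limma adjusted p = 0.0633 to 0.0925) and with edgeR (adjusted p = 0.0546). Abca12 TRCN0000113455 was not called, with 1.51 to 2.31% in the lungs against 2.52 to 2.81% at day 0. Slc16a3, the lactate exporter MCT4, had a hairpin, TRCN0000079653, that fell by 1.11 in culture (limma adjusted p = 0.00379), a call lost with all 3 groups in 1 fit (limma adjusted p = 0.189), and was not called in the lungs, at 0.0445 to 0.411% against 0.566 to 0.611% at day 0. In pool 19 Slc16a3 TRCN0000444225 rose by 1.82 in the lungs (limma adjusted p = 0.0407) and Abca12 TRCN0000419598 rose by 1.24 in culture (limma adjusted p = 0.00518), with a log2 difference of -2.33 between lungs and culture (limma adjusted p = 0.00814). Golt1b TRCN0000305016 of pool 17 fell by 1.48 in the lungs (limma adjusted p = 0.0432) and fell by 2.56 in culture (limma adjusted p = 2.52e-05).

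The other 2 genes, Lrrc57, a leucine-rich repeat protein of little known function, and Spert, a gene known from spermatids, had 7 hairpins, of which 1 rose in the lungs (background 14.7%), 2 fell (19.1%) and 4 were not called, with a median log2 change of -0.25. In culture 3 fell (background 31.9%) and none was called higher (28.8%), with a median of -0.27. Spert TRCN0000198891 had the largest fall of the pool in the lungs, from 1.61, 1.49 and 1.80% at day 0 to 0.581, 1.07 and 0.841% in culture and 0.0852, 0.126 and 0.0538% in the lungs, with no overlap between the 3 groups. It fell by 4.09 in the lungs (SE 0.38, limma adjusted p = 0.000138) and was lower than in culture, with a log2 difference of -3.44 (SE 0.50, limma adjusted p = 0.000664). Both calls were kept in every alternative run. Its log2 fall (-0.51) in culture was lost without day 0 library C (limma adjusted p = 0.0605) and with all 3 groups in 1 fit (limma adjusted p = 0.283), and the log2 change was -1.01 with library totals and -0.91 with the authors' scaling.

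None of the other 3 Spert hairpins was called in the lungs against day 0. Spert TRCN0000178215 had 0.848, 0.697 and 1.02% at day 0 and 0.420, 0.391 and 0.562% in the lungs, all below day 0 (-0.70, limma adjusted p = 0.0757), and TRCN0000178249 had 0.432, 0.334 and 0.498% and then 0.367, 0.630 and 0.558% (0.48, not called). TRCN0000198963 went from 0.264, 0.174 and 0.355% at day 0 to 0.0620, 0.0891 and 0.0903% in culture and 0.187, 0.255 and 0.455% in the lungs. It was higher in lungs than in culture by 1.65 (limma adjusted p = 0.0383), the opposite of TRCN0000198891, but that call was lost without any 1 of culture libraries A, B and C or lung libraries B and C (limma adjusted p = 0.0568 to 0.150). Its log2 fall (-1.17) in culture (limma adjusted p = 0.0258) was lost without day 0 library A or C (limma adjusted p = 0.0935 and 0.157) and with the replicate letter as a block (0.0705). No other pool held a Spert hairpin.

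Lrrc57 TRCN0000179028 was rare at day 0, with 0.262, 0.253 and 0.314%, and became rarer in culture, with 0.0314, 0.0634 and 0.0156%, and in the lungs, with 0.0854, 0.008 and 0.0129%. It fell by 3.52 in the lungs (SE 0.88) and fell by 2.62 in culture (SE 0.53), at limma adjusted p = 0.0129 and 0.000297, and both calls were kept in every alternative run, while lungs and culture overlapped. Lrrc57 TRCN0000183307 had 1.18, 1.34 and 1.49% at day 0 and 1.30, 2.65 and 2.64% in the lungs, of which library A lay within the day 0 range. Its rise of 0.85 (limma adjusted p = 0.0424) was lost without day 0 library A, B or C or lung library B or C (limma adjusted p = 0.0814 to 0.226), with library totals (0.132) and with the authors' scaling (0.098, limma adjusted p both). Lrrc57 TRCN0000184158 was not called, with 0.594 to 0.787% at day 0 and 0.414 to 0.576% in the lungs. No other pool held an Lrrc57 hairpin.

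Counted by gene, 17 of the 29 genes had at least 2 hairpins in pool 12. In the lungs against day 0, 1 of them, Msi2, had 2 or more called hairpins that all went the same way, 4 (Fbxo22, Lrrc57, Rassf8 and Tmem33) had called hairpins in opposite directions, 9 had 1 called hairpin and 3 had none. In the other pools 12.6% of 286 genes with at least 2 hairpins had opposite calls and 8.39% had calls that went 1 way. In culture 5 of the 17 had calls that went 1 way and 4 had opposite calls, against 19.8% and 29.7% of 303 genes elsewhere. In lungs against culture Msi2 (lower) and Pak1ip1 (higher) had calls that went 1 way and Spert had opposite calls, against 5.63% and 6.34% of 284 genes elsewhere. Of the 49 hairpins of pool 12 genes that lay in other pools, 9 were called higher and 11 lower in the lungs against day 0 of their own pools, where 14.7% and 19.1% of all hairpins tested were. In culture these counts were 10 and 17 (28.8% and 31.9% of all hairpins tested), and between lungs and culture 4 and 8 (11.6% and 13.3%), so the counts lie near the background.

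The 8 control hairpins, which are in every pool and stand outside the 53, fell on average relative to the targeting hairpins by day 28. They include hairpins with and without a mouse target, which did not all change alike. Their mean log2 change was taken on the scale set by the targeting hairpins. It was -2.42 ± 0.61 in the lungs against day 0 (exact permutation p = 0.1), with 7 lower and 1 higher. The value after ± is here the square root of the summed variances between libraries of the 2 groups compared, each with n = 3. In the other 16 pools with lungs the same mean lay between -2.05 and 2.80, with a median of -1.45. In culture it was -1.12 ± 0.16 (exact permutation p = 0.1), with 6 lower and 2 higher, and between lungs and culture -1.16 ± 0.63 (exact permutation p = 0.1).

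The controls with no mouse target did not behave alike. Shares of controls are given in percent of the pool 12 targeting reads too. Non-targeting-shRNA-1 was at 3.25, 3.13 and 3.23% at day 0, 4.46, 4.61 and 4.82% in culture and 2.86, 2.10 and 2.86% in the lungs. Non-targeting-shRNA-2 went from 0.687, 0.669 and 0.683% at day 0 to 0.131, 0.132 and 0.111% in culture and 0.0603, 0.0227 and 0.0133% in the lungs, a log2 change of -4.49 in the lungs, beside -4.09 for the targeting hairpin with the largest fall, Spert TRCN0000198891. The hairpin against GFP, which the labels do not say these cells carry, had 0.610, 0.469 and 0.671% at day 0 and 0.304, 0.674 and 0.314% in the lungs, with overlapping shares.

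Of the controls aimed at genes, the one against Cdkn1b, an inhibitor of cyclin-dependent kinases, was the control that was higher in the lungs, with 1.42, 1.29 and 1.57% at day 0, 1.17, 1.94 and 1.70% in culture and 2.38, 6.47 and 2.18% in the lungs, a log2 change of 1.38. The hairpin against MUC1, a membrane mucin, went from 1.58 to 1.66% at day 0 to 0.183 to 0.236% in culture and 0.0974 to 0.315% in the lungs. The hairpin against PIK3CA, a catalytic subunit of PI3K, went from 0.373 to 0.478% to 0.0701 to 0.169% and 0.0417 to 0.118%. Both lay below day 0 in every day 28 library. With 3 libraries against 3 the exact permutation p of a single control cannot go below 0.1, which is 0.15 after Benjamini-Hochberg adjustment over the 24 tests of 8 controls in 3 comparisons, so no single control passed the threshold.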

How the data were processed

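Each deposited file lists hairpins with a normalised value, a signal that the authors scaled per library. Reads were aligned with BWA 0.5.9, per the submitters' processing notes, while the counting rule and the scaling were not given in the sources used here. In the deposited values, 3 times the control signal plus the pool 12 targeting signal came to the same total, 8915050, in all 9 pool 12 libraries. The authors' scaling thus weighs the controls by 3. Dividing the deposited signal by the smallest value of its library gave whole reads, within 0.01 reads, for 100% of 27241 values, and shares and CPM were computed from those reads. In the whole series 148 of 158 libraries held values and were used for the background, and 10 libraries of other pools hold only missing values. Library totals are those of the files (4154876 to 7459208 reads). All 9 pool 12 libraries name the same sequencing lane, so no batch could be compared.

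Hairpins with a mean of under 10 reads in a fit were left out, which removed none of pool 12. Each pool was fitted alone with limma 3.58.1 (lmFit, then eBayes with trend and robust settings) in R 4.3.3 on log2(CPM + 1), with TMM factors from edgeR 4.0.16, libraries of both groups in the fit and no covariate, and Benjamini-Hochberg adjustment was run across the hairpins of every pool together. The eBayes step shares an estimate of spread among the hairpins of a pool, to a degree set per pool, so adjusted p of different pools do not carry the same weight. The fit was tested on simulated data. Exact permutation tests, two-sided, used SciPy 1.17.1. Alternatives were library totals, DESeq2 1.42.0 size factors, the authors' scaling, edgeR's quasi-likelihood test, DESeq2's Wald test, no filter, a pseudocount of 10, all 3 groups in 1 fit, the replicate letter as a block, and leaving out each library. The labels do not say whether the letters A, B and C pair libraries across groups. Deviations from group means correlated between -0.59 and 0.29 for the same letter, which did not meet the rule for pairing (over 0.1 for every pair), so the fits were run unpaired.

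Named with values were the largest called changes of each comparison, genes with 3 or more hairpins, genes with hairpins that went 1 way or opposite ways, the largest lung shares and the controls; single values of other hairpins were added to describe every gene and were chosen with their values seen. The members, the gene groups (assigned from textbook roles) and the tests were chosen with earlier results of these data known. Of the 8 control hairpins, 2 are not reported here singly. Culture libraries of other pools can hold a mix of pools, so controls in culture were not compared with them.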

Additional observations from a re-analysis of the deposited data

Results flagged for a closer look

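Culture library C held 0.134% reads of hairpins assigned to other pools, above the highest day 0 library, which held 0.126%. The largest part, 0.0608% of its reads, belonged to pool 9. The other 2 culture libraries held 0.0212 and 0.052%, and the lung libraries 0.0659 to 0.0973%. These hairpins are not part of pool 12 and entered no comparison, and where their reads came from was not tested.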

How the results depend on the processing

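Of the calls, those kept were 8 of 21 (lungs with day 0), 19 of 34 (culture with day 0) and 11 of 16 (lungs with culture) in every alternative run. Leaving out 1 library gave 12 to 26, 29 to 36 and 13 to 18 calls in the same order. The 12 came without day 0 library B and again without day 0 library C, while leaving out a lung library gave 19 to 26, and the cause was not tested. With all 3 groups in 1 fit, which shares 1 estimate of the spread among libraries, calls were 28, 20 and 25 in that order. With the replicate block calls were 23, 32 and 20 in the order of comparisons above, of which 19, 31 and 16 were shared with the fits without it, and whether the letters pair the libraries is not stated in the labels. The log2 change in effective number of hairpins was -0.40 in the lungs and -0.47 in culture, -0.59 and -0.77 with the inverse Simpson index, and -0.0863 and -0.157 as the number of hairpins above 1 read per 1000. Directions that turned were those in culture of Msi2 TRCN0000071974 (-0.18 with library totals, -0.073 with the authors' scaling), Uvrag TRCN0000121011 (-0.11 and -0.0068) and Golt1b TRCN0000126157 (-0.082 with library totals), and these scalings moved the median culture change by -0.51 and -0.40. Every pool 12 hairpin had at least 320 reads in each library, and each group had 3 libraries.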

Other observations

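For several hairpins 1 lung library lay well above the other 2, and it was not the same library for all of them; these were picked after their values were seen. Pcdhb6 TRCN0000094303 made up 8.60% of lung library B and 3.16 and 3.08% of A and C. Lung library C held 1.43% of Arhgef12 TRCN0000109964, where A and B held 0.428 and 0.229%, and it held 3.85% of Uvrag TRCN0000121009 against 1.51 and 1.42%. Lung library A held 0.411% of Slc16a3 TRCN0000079653 against 0.0445 and 0.130%, and 0.0854% of Lrrc57 TRCN0000179028 against 0.008 and 0.0129%, where the highest lung was 10.7 times the lowest, the widest ratio among the 53 hairpins. At day 0 the widest ratio was 2.19.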
